A study of Mus musculus with 12 samples.

Results

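The genes examined here are the Wnt receptors, their co-receptors, the secreted and membrane-bound antagonists, the R-spondins with their receptors, and 2 factors that modify or carry Wnt ligands during secretion. They were chosen by gene name from a list of 40 genes, and the ligands themselves were not among them. Of the 40, 33 had a row among the 18903 genes counted, and all 33 passed the filter on low counts. *Sfrp2*, *Sfrp5*, *Dkk1*, *Kremen2*, *Rspo4*, *Lgr5* and *Rnf43* were not analysed here. The 33 genes comprised 10 Frizzled receptors, 2 LRP co-receptors, 4 receptors of the ROR, RYK and PTK7 class, 3 secreted Frizzled-related proteins, 3 genes of the Dickkopf and Kremen families, 3 other inhibitors, 3 R-spondins, 3 genes of the LGR and ZNRF3 module, and 2 secretion factors.

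Wnt ligands are lipid-modified proteins that bind the cysteine-rich domain of Frizzled receptors, and in the canonical branch they also recruit LRP5 or LRP6, which leads to stabilisation of β-catenin. ROR2, RYK and PTK7 take part mainly in branches that do not depend on β-catenin, such as planar cell polarity. Secreted Frizzled-related proteins and WIF1 bind ligands, Dickkopf proteins bind LRP5/6, NOTUM removes the lipid from the ligand, and R-spondins act through LGR receptors to keep the ligases ZNRF3 and RNF43 from clearing Frizzled from the membrane. In the developing brain this pathway acts on progenitor division and on glial maturation.

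RNA was measured in primary astrocytes grown from mouse brain taken at postnatal day 1 (P1), P6 or P8, in 12 RNA-seq libraries that formed 6 groups of 2. *Rack7*-cKO mice were hGFAP-cre::*Rack7* fl/fl and WT mice were hGFAP-cre::*Rack7* +/+, so that the controls carried the Cre transgene as well. Cre was driven by the human GFAP promoter, which is active in radial glia and in the cells that descend from them, and cells of other lineages in a culture would keep *Rack7*. The meninges had been removed and the flasks shaken to reduce microglia and oligodendrocyte lineage cells, the mice were of both sexes, and the labels call the 2 libraries of a group biological replicates without saying whether they came from separate animals. The p-values therefore measure the spread between these libraries only.

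Library totals lay between 54413504 and 89183250 counts. Values below are CPM, the count of a gene relative to the TMM-scaled library size, and a gene was called at a Benjamini-Hochberg adjusted p below 0.05 over the 17938 genes tested in edgeR together with a fold change of at least 1.5. *Zmynd8*, the gene that encodes RACK7, ran against the labels: its counts came to 136 and 136 against 213 and 216 CPM at P1, 114 and 116 against 242 and 230.5 CPM at P6 and 99.98 and 104 against 160.4 and 171 CPM at P8 (the libraries labelled WT against those labelled cKO). A count over the whole gene does not show whether the floxed exons were lost. All directions below therefore compare libraries by their labels, with log2 fold changes positive where the libraries labelled cKO were higher.

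The 10 astrocyte markers, led by *Aqp4*, *Gfap* and *Glul*, were counted in every library, with summed levels of 2497 and 2546 against 2421 and 2441 CPM at P1, 1909 and 2108 against 1698 and 1839 CPM at P6 and 1910.4 and 2302 against 971 and 975 CPM at P8 (labelled WT against labelled cKO). At P8 *Aldh1l1*, a marker of this list, was higher under the label cKO, at 52.4 and 51.3 against 73.3 and 72.1 CPM, while the others were lower. *Gja1* differed between the P8 WT libraries, at 360 and 712 CPM, and *Slc1a2* between those of P1 cKO, at 12.6 and 84.2 CPM. Fibroblast markers, led by *Col1a1*, *Col1a2* and *Col3a1*, were present as well and differed between the labels. Their 10 genes summed to 501 and 513 against 2566 and 2525 CPM at P1, 6811 and 6879 against 2733 and 2561 CPM at P6 and 26527 and 26419.9 against 8184 and 8433 CPM at P8, and 7 of the 10 were called higher under the label cKO at P1 and 7 lower at P6. At P8, 7 were called lower and 1 higher. *Lum* and *Dpt* were at 0 in at least 1 library. Markers of arachnoid barrier cells (4 of 6 in the data) summed to 236 and 224 against 66.4 and 70.2 CPM at P6 and 273 and 309 against 66.9 and 68.2 CPM at P8. Their P1 groups overlapped, at 35.5 and 39.2 against 44.8 and 35.2 CPM. *Alcam* made up most of this sum, with 222 and 210 against 66.2 and 69.9 CPM at P6, and the other members were lower at P6 and P8 as well. The summed neural stem cell markers (5 of 6), led by *Nes*, ran the other way, with 1069.8 and 1146 against 2342 and 2323 CPM at P6 and 242 and 236 against 645 and 647 CPM at P8. Of these 5, *Nes*, *Sox2* and *Pax6* were called higher at P6 and P8, *Prom1* was called lower at P8 and *Fabp7* was not called. In bulk RNA, fewer cells of a type and less RNA per cell cannot be told apart.

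**Figure D1:**
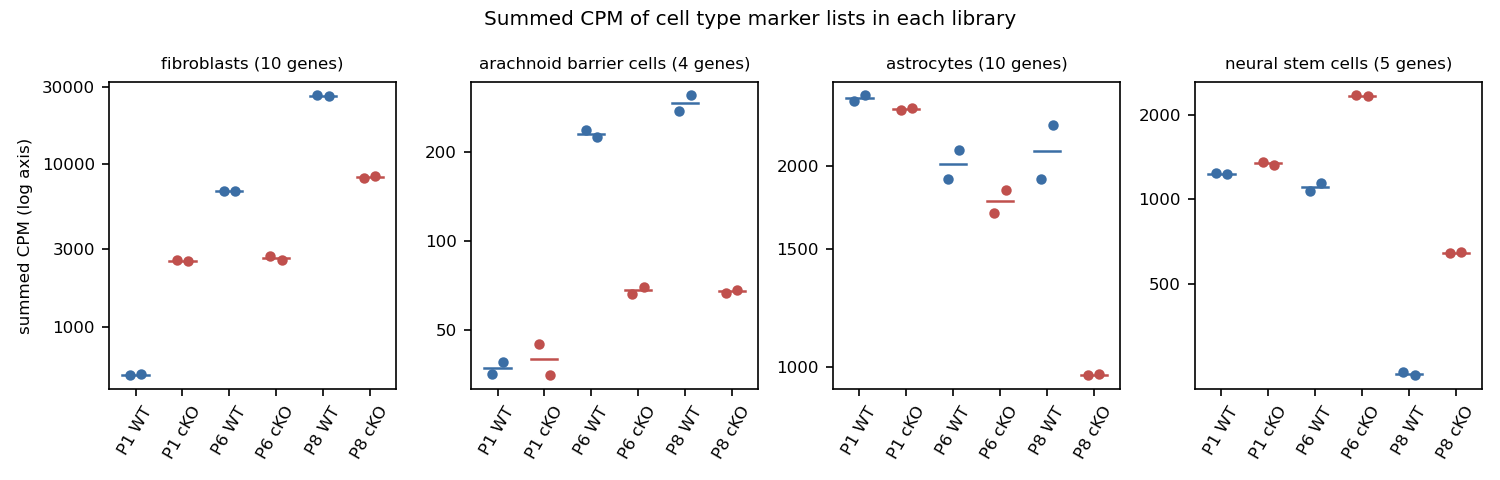
Summed CPM (log axis) of the fibroblast, arachnoid barrier cell, astrocyte and neural stem cell marker lists in each of the 12 libraries (points, blue for the label WT and red for the label cKO) with the group mean as a line. The fibroblast sum lies higher under the label cKO at P1 and higher under the label WT at P6 and P8.

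Promoter sequence is shown for 3 members that changed strongly, to let the base composition in front of them be seen. RefSeq windows (GRCm38.p6, 300 bases around a transcription start) matched 17 of the 33 genes, and their median number of CG dinucleotides was 24 (range 10 to 53), beside 19 over the 14774 windows of genes in the count data and 7 over all 32851 windows. The lines below give the 250 bases before the start on the strand of the gene, with each CG in capitals.
Ror2: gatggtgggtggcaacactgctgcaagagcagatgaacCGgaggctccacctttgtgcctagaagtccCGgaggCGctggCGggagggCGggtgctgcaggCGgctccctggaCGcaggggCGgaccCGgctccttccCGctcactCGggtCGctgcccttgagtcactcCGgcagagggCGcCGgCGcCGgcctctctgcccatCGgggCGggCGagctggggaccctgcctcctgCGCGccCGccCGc
Dkk2: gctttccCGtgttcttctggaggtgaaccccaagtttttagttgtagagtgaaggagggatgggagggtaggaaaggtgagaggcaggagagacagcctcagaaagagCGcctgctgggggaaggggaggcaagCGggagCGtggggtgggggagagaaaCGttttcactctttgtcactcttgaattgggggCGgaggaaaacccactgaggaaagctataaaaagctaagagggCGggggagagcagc
Fzd7: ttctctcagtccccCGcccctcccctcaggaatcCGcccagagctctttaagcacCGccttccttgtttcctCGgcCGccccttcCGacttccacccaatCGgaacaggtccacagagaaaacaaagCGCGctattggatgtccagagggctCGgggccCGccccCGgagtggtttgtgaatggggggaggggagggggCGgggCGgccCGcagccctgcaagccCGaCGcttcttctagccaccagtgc
They lie at chr13:53286125-53286374, minus strand, at chr3:132085042-132085291, plus strand, and at chr1:59481897-59482146, plus strand. *Ror2* and *Dkk2*, whose RNA was higher under the label cKO at P1 and lower at P6 and P8, had 24 and 7 CG in these 250 bases. The *Fzd7* stretch held 17. Over the full windows of 300 bases, to which the median above refers, *Ror2* held 32, *Dkk2* 11 and *Fzd7* 24. A heptamer of the kind bound by TCF/LEF factors (CTTTG followed by 2 bases that are each A or T, on either strand) occurred in 1 of the 17 member windows (5.88%), that of *Fzd7*, where it reads aacaaag and begins 130 bases before the start. Over the genes in the count data 12.02% of the windows held one, and over all windows 16.9%. Such a match is a description of the letters and not of binding. The *Fzd7* window ends before the annotated gene start at 59482424, so the distance of 130 bases refers to the RefSeq start.

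At P1, 6 of the 33 genes were called higher in the libraries labelled cKO and none lower, against 4.01% and 0.892% of all genes tested. The 6 were *Ror2*, *Sfrp4*, *Dkk2*, *Wif1*, *Apcdd1* and *Porcn*. The count of lower genes at P1 was also 0 in edgeR with an unadjusted p below 0.05 and the same fold change, and 0 in DESeq2. At P6, 5 were called higher (7.16% of all genes) and 8 lower (6.38%), and at P8 only 2 higher (11.2%) and 15 lower (8.37%). The median log2 fold change over the 33 genes went from 0.35 at P1 to 0.04 at P6 and -0.34 at P8, whereas that of all genes stayed at 0, 0 and 0.01. In all, 21 of the 33 genes were called at 1 or more time points (26.2% of all genes), of which 11 were called at 1 time point (16.7%), 5 at 2 (7.15%) and 5 at all 3 (2.35%).

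**Figure D2:**
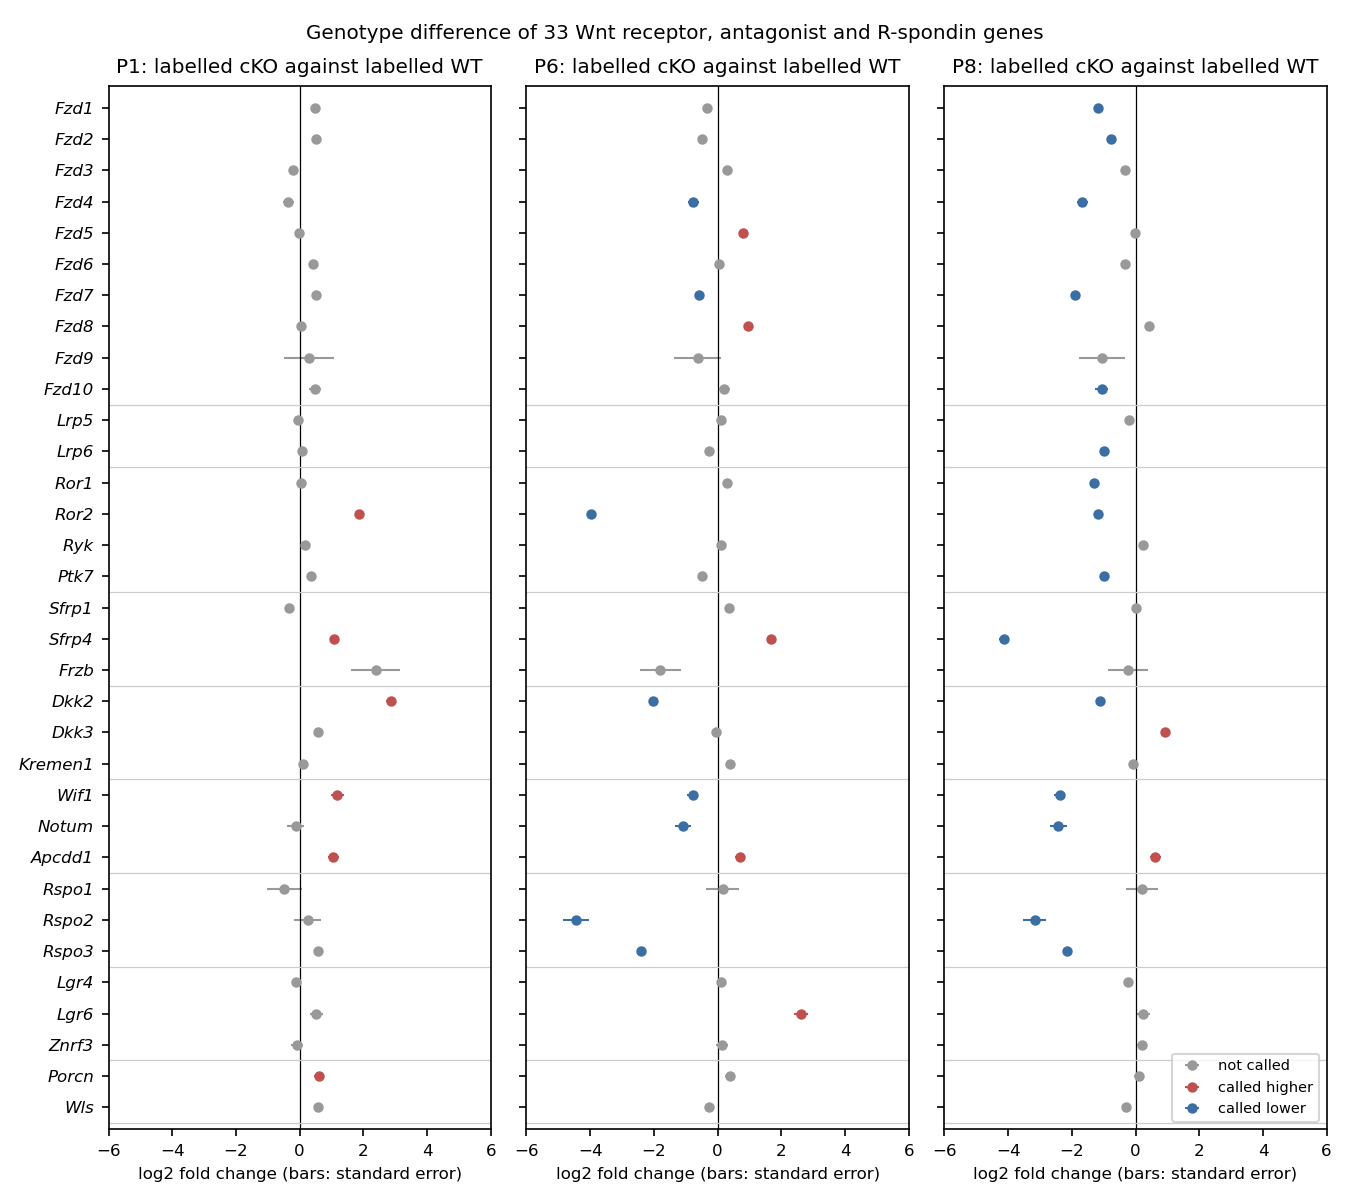
Log2 fold change of the libraries labelled cKO against those labelled WT for the 33 genes at P1, P6 and P8, with standard errors as bars, grey where not called, red where called higher and blue where called lower, and with thin lines between the functional families. The points spread to the left from P1 to P8, with 0, 8 and 15 genes called lower.

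Of the 10 Frizzled receptors, 5 (*Fzd1*, *Fzd2*, *Fzd4*, *Fzd7* and *Fzd10*) were called lower under the label cKO at P8, as were 8.37% of all genes, and none was called higher. The other 5 were not called at that age, among them *Fzd5* at -0.02 and *Fzd8* at 0.41. No Frizzled was called at P1. At P6, *Fzd4* and *Fzd7* were lower while *Fzd5* and *Fzd8* were higher. The family median log2 fold change fell from 0.36 (P1) through -0.14 (P6) to -0.92 (P8).

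*Fzd7*, a receptor of neural progenitors and many stem cells (chromosome 1, 59482424 to 59486955 in GRCm38), had the largest change of the family. In the libraries labelled WT against those labelled cKO, its levels were 37.5 and 39.2 against 54.9 and 55.5 CPM at P1, 125 and 128 against 84.8 and 83.8 CPM at P6 and 270.4 and 270.5 against 69.2 and 74.3 CPM at P8. The groups did not overlap at any time point, and the label WT went from the lower to the higher side between P1 and P6. The log2 fold change was 0.53 at P1, which missed the fold threshold, -0.59 ± 0.049 (SE, adjusted p = 2.98e-05) at P6 and -1.91 ± 0.051 (SE, adjusted p = 1.33e-08) at P8. The P6 value lies at the threshold of 1.5-fold. The call was lost without P6 WT replicate 2 and without P6 cKO replicate 2, with -0.57 (adjusted p = 0.000366) and -0.58 (adjusted p = 0.00039). With all libraries it also fell under that fold with DESeq2 size factors (-0.576), without the low-count filter (-0.585) and in DESeq2 (-0.575).

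*Fzd1* (chromosome 5, 4753839 to 4758035) behaved alike at lower amplitude, at 43.6 and 43.3 against 60.8 and 60.5 CPM at P1, 122 and 119 against 95.4 and 97.8 CPM at P6 and 136 and 139 against 61.8 and 60.03 CPM at P8. The libraries labelled cKO were above those labelled WT at P1 and below them at P6 and P8, and only the P8 difference, -1.18 ± 0.046 (SE, adjusted p = 1.17e-07), was called. *Fzd2* stood at 27.5 and 30.5 against 42.01 and 40.6 CPM at P1, 56.7 and 65.1 against 45.7 and 40.8 CPM at P6 and 82.3 and 77.97 against 47.4 and 45.8 CPM at P8. Its P8 difference was -0.78 ± 0.089 (SE, adjusted p = 0.000123). Leaving out P1 WT replicate 2 made its rise at P1 a call at 0.59 (adjusted p = 0.0196), and leaving out P6 WT replicate 1 made its fall at P6 one at -0.59 (adjusted p = 0.00331). *Fzd4*, which is also the receptor for norrin in retinal vessels, came to 8.801 and 7.41 against 7.63 and 5.06 CPM at P1, 25.5 and 22.6 against 14.8 and 13.6 CPM at P6 and 43.5 and 45.5 against 14.2 and 13.6 CPM at P8. The label WT was higher at P6 and P8, with log2 fold changes of -0.76 ± 0.17 (SE, adjusted p = 0.0104) and -1.68 ± 0.17 (SE, adjusted p = 6.74e-05). The call at P6 was lost without P6 WT replicate 1, at -0.67 (adjusted p = 0.0606), and without P6 cKO replicate 2, at -0.70 (adjusted p = 0.0647). Without P1 cKO replicate 1, *Fzd4* was also called lower at P1, at -0.68 (adjusted p = 0.0313).

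*Fzd5* and *Fzd8*, a closely related pair that can signal through β-catenin, were the Frizzled genes called higher under the label cKO, both at P6 alone. *Fzd5* was counted at 32.4 and 33.3 against 29.97 and 34.3 CPM at P1, 46.5 and 44.02 against 76.3 and 79.5 CPM at P6 and 42.2 and 42.4 against 40.6 and 42.8 CPM at P8. Its groups overlapped at P1 and P8 and were separate at P6, with 0.78 ± 0.075 (SE, adjusted p = 6.61e-05). *Fzd8* was counted at 28.5 and 26.6 against 28.2 and 27.9 CPM at P1, 25.2 and 21.2 against 47.4 and 43.3 CPM at P6 and 22.1 and 21.4 against 29.01 and 28.9 CPM at P8. It differed by 0.97 ± 0.094 (SE, adjusted p = 7.02e-05) at P6, and its P8 difference of 0.41 stayed under the fold threshold. *Fzd10*, a low gene, was counted at 9.47 and 11.8 against 13.8 and 15.9 CPM at P1, 8.88 and 8.77 against 10.4 and 9.85 CPM at P6 and 3.08 and 4.29 against 1.94 and 1.59 CPM at P8. At P8 it differed by -1.07 ± 0.19 (SE, adjusted p = 0.00208).

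The other 3 Frizzled genes were called at no time point. *Fzd3*, an axon guidance and planar polarity receptor, had log2 fold changes between -0.34 and 0.30, and *Fzd6* between -0.33 and 0.42. *Fzd9* was counted at no more than 1.13 CPM in any library, with standard errors of 0.72 to 0.78 on its log2 fold changes, and its P8 libraries labelled cKO held 12 and 60 counts.

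Scaled to exon length, so that genes can be set beside each other, *Fzd3* led the family in the group P1 WT with 16.1 CPM per kb, ahead of *Fzd1* with 10.4. In the group P8 WT *Fzd7* led with 59.7 CPM per kb, followed by *Fzd1* with 32.8 and *Fzd2* with 21.9. *Fzd7* made up 41.5% of the summed Frizzled level there and 14.2% in the group P1 WT. In the group P8 cKO the same 3 genes led, but at 15.8, 14.5 and 12.7 CPM per kb, and *Fzd7* made up 24.0%. The family sum was 59.7 CPM per kb for P1 WT, 106 for P6 WT and 144 for P8 WT, and 70.9, 95.6 and 65.9 for the label cKO at these ages. These sums are descriptions of group means and were not tested.

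**Figure D3:**
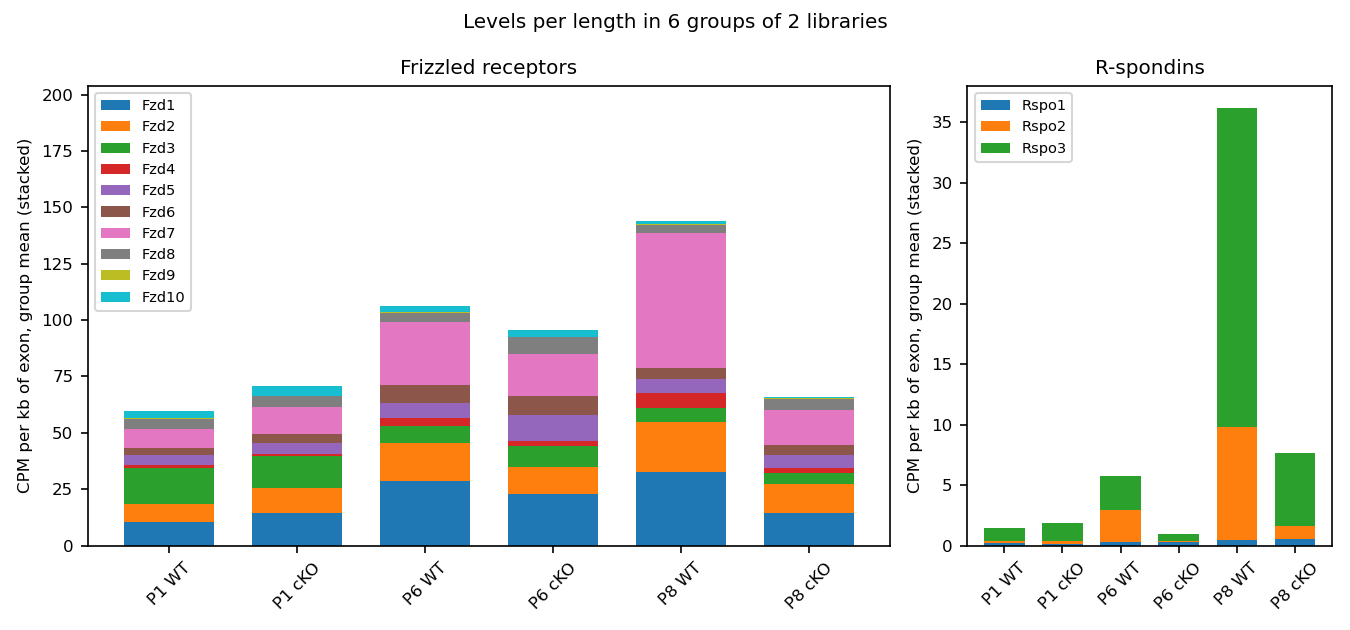
Stacked group means in CPM per kb of exon for the 10 Frizzled receptors (left) and the 3 R-spondins (right) in the 6 groups of 2 libraries. The P8 WT column is the tallest in both panels, with *Fzd7* at 59.7 CPM per kb and *Rspo3* at 26.4 CPM per kb.

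Of the LRP co-receptors, which pair with Frizzled in canonical signalling, *Lrp6* was called at P8 and *Lrp5* was not. *Lrp6* was counted at 171 and 165 against 175 and 178 CPM at P1, 249.7 and 232 against 182 and 216 CPM at P6 and 409.6 and 423 against 213 and 206 CPM at P8. The libraries labelled cKO were close to those labelled WT at P1 and far below them at P8, where the difference was -0.99 ± 0.075 (SE, adjusted p = 8.24e-06). *Lrp5* differed by -0.20 at P8.

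*Ror2*, a receptor tyrosine kinase bound by Wnt5a, showed the largest reversal among the receptors. In the libraries labelled WT against those labelled cKO, it was counted at 1.59 and 1.84 against 5.51 and 7.02 CPM at P1, 35.3 and 32.5 against 2.19 and 2.16 CPM at P6 and 34.3 and 34.1 against 15.05 and 15.1 CPM at P8. The label cKO was on the higher side at P1 and on the lower side at P6 and P8, with no overlap at any age, and P6 cKO lay near the level of P1 WT. The gene spans chromosome 13, 53109312 to 53286124. Its log2 fold changes were 1.86 ± 0.13 (SE, adjusted p = 3.03e-05) at P1, -3.96 ± 0.14 (SE, adjusted p = 9.82e-08) at P6 and -1.18 ± 0.12 (SE, adjusted p = 5.85e-05) at P8.

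*Ror1*, the related kinase, separated most at P8, at 37.3 and 34.2 against 37.5 and 36.3 CPM at P1, 28.7 and 30.3 against 37.5 and 35.6 CPM at P6 and 54.7 and 51.7 against 20.6 and 22.3 CPM at P8. The P8 groups stood apart, with a log2 fold change of -1.31 ± 0.078 (SE, adjusted p = 1.78e-06). *Ptk7*, a pseudokinase needed for planar polarity, was counted at 48.5 and 49.8 against 64.7 and 60.7 CPM at P1, 129 and 121 against 91.8 and 87.6 CPM at P6 and 184 and 177 against 90.2 and 92.5 CPM at P8. It was above the label WT at P1 and below it afterwards, and only the P8 difference of -0.98 ± 0.056 (SE, adjusted p = 1.35e-06) passed the threshold. *Ryk*, the remaining receptor of this class, was not called at any age and differed by 0.23 at P8. Annotated genes overlap *Ror1* on both strands and *Ptk7* on the opposite strand, and the strand setting of the counting is not given, so their reads cannot be told apart.

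Among the secreted Frizzled-related proteins, *Sfrp1* was by far the most abundant and the most even. The highest group mean was 1.45 times the lowest in *Sfrp1*, 22.9 times in *Sfrp4* and 37.3 times in *Frzb*, whose lowest group holds a library with 0 counts. *Sfrp4*, which binds Wnt ligands outside the cell, was counted at 2.63 and 2.396 against 5.39 and 5.28 CPM at P1, 6.501 and 5.55 against 21.3 and 17.1 CPM at P6 and 56.3 and 59.1 against 3.23 and 3.305 CPM at P8. The libraries labelled cKO were the higher ones at P1 and P6 and the lower ones at P8, where the label WT had risen and the label cKO had fallen back. The differences were 1.09 ± 0.13 (SE, adjusted p = 0.000841) at P1, 1.67 ± 0.13 (SE, adjusted p = 1.44e-05) at P6 and -4.14 ± 0.14 (SE, adjusted p = 4.6e-08) at P8, the last being the largest fall of any member at that age. The gene lies on chromosome 13, 19623104 to 19632994.

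*Sfrp1* was counted between 228 and 339.7 CPM in the 12 libraries, and per kb it made up 99.1% of the family sum in the group P1 WT and 77.7% in P8 WT. Its genotype differences of -0.34, 0.37 and 0.03 stayed under the fold threshold. *Frzb* rested on a library that stood apart: it had 0 counts in P1 WT replicate 1 and 45 in P1 WT replicate 2, beside 95 and 86 in the P1 libraries labelled cKO. With all libraries it was not called. At P6 it stood at 10.6 and 10.04 against 3.06 and 2.88 CPM, with separate groups, and the difference of -1.80 ± 0.64 (SE, adjusted p = 0.0707) became a call without P1 WT replicate 1, at -1.80 (adjusted p = 4.1e-05), and without P1 WT replicate 2, at -1.80 (adjusted p = 4.13e-05). The P1 difference was also called without P1 WT replicate 1, at 1.49 (adjusted p = 0.00325). Without P1 WT replicate 2 the P1 WT group held 0 counts, for which no fold is given.

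*Dkk2*, which binds LRP6, changed in the same order as *Ror2*. Its levels in the libraries labelled WT against those labelled cKO were 0.536 and 0.393 against 3.38 and 3.34 CPM at P1, 22.2 and 20.2 against 4.81 and 5.48 CPM at P6 and 40.9 and 39.8 against 17.9 and 19.5 CPM at P8. All P1 libraries labelled cKO were above those labelled WT, and all P6 and P8 ones below, without overlap. The gene lies on chromosome 3, 132085292 to 132180304, and its log2 fold changes were 2.87 ± 0.15 (SE, adjusted p = 4.47e-06), -2.04 ± 0.12 (SE, adjusted p = 3.39e-06) and -1.11 ± 0.12 (SE, adjusted p = 8.59e-05) at P1, P6 and P8. The P1 value is the largest rise of any member at that age, although it starts from 32 counts in each of the WT libraries.

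*Dkk3*, a divergent Dickkopf protein that is not a typical LRP5/6 antagonist, took the opposite course at P8. Its levels were 40.4 and 38.98 against 60.4 and 58.6 CPM at P1, 120.0 and 114 against 114 and 112 CPM at P6 and 111 and 117 against 220.1 and 216 CPM at P8. The P8 libraries labelled cKO were the highest of all 12, with 0.93 ± 0.050 (SE, adjusted p = 9.57e-07), while the P6 groups differed by -0.05. At P1 the difference of 0.58 ± 0.050 (SE, adjusted p = 0.000107) lay at the threshold and was called without P1 WT replicate 1, at 0.61 (adjusted p = 0.00121), and without P1 cKO replicate 2, at 0.60 (adjusted p = 0.000935). *Kremen1*, a Dickkopf co-receptor, was not called at any age and reached 0.38 at P6.

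*Wif1*, which sequesters Wnt ligands, also turned between P1 and P6. It was counted at 0.436 and 0.725 against 1.28 and 1.404 CPM at P1, 17.6 and 17.8 against 10.9 and 9.71 CPM at P6 and 16.9 and 18.1 against 3.56 and 3.15 CPM at P8. The label cKO was higher at P1, at levels close to 1 CPM, and lower at P6 and P8 with no overlap. The differences were 1.18 ± 0.21 (SE, adjusted p = 0.00795), -0.78 ± 0.17 (SE, adjusted p = 0.00886) and -2.38 ± 0.18 (SE, adjusted p = 8.24e-06) at P1, P6 and P8. The P6 call was lost without P6 cKO replicate 2, at -0.69 (adjusted p = 0.0611), and the P1 call when the P1 libraries were fitted alone, at 1.197 (adjusted p = 0.192). *Wif1* lies on chromosome 10, 121033960 to 121100650.

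*Notum*, the ligand deacylase, was a low gene, at 1.46 and 1.13 against 1.19 and 1.18 CPM at P1, 5.07 and 5.52 against 1.98 and 3.02 CPM at P6 and 5.62 and 5.097 against 1.16 and 0.832 CPM at P8. The label WT was on the higher side at P6 and P8 without overlap. The differences were -1.08 ± 0.26 (SE, adjusted p = 0.0127) at P6 and -2.43 ± 0.27 (SE, adjusted p = 0.000103) at P8. The P6 call was lost without P6 WT replicate 2, at -1.02 (adjusted p = 0.0614), and without P6 cKO replicate 1, at -0.81 (adjusted p = 0.0769). The antisense genes *Notumos* and *Myadml2os* overlap it, and their reads could not be told apart.

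*Apcdd1*, a membrane-bound inhibitor, was the only gene called higher under the label cKO at all 3 ages, at 2.85 and 2.63 against 5.93 and 5.49 CPM at P1, 4.26 and 5.504 against 7.904 and 7.97 CPM at P6 and 4.07 and 4.17 against 7.02 and 5.71 CPM at P8. Its groups did not overlap at any age, and the differences were 1.06 ± 0.17 (SE, adjusted p = 0.0042), 0.70 ± 0.16 (SE, adjusted p = 0.0119) and 0.63 ± 0.16 (SE, adjusted p = 0.0156). The last 2 calls depended on single libraries. The P6 call was lost without P6 WT replicate 1, at 0.53 (adjusted p = 0.0783), and when the P6 libraries were fitted alone, at 0.70 (adjusted p = 0.0527). The P8 call was lost without P8 WT replicate 1, at 0.61 (adjusted p = 0.074), without P8 WT replicate 2, at 0.64 (adjusted p = 0.0632), and without P8 cKO replicate 1, at 0.47 (adjusted p = 0.118).

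The R-spondins, which raise the sensitivity of cells to Wnt, differed more at P6 than any other family, with a log2 ratio of summed CPM of -3.02 under the label cKO. *Rspo2* (chromosome 15, 43020794 to 43170826) was counted at 1.14 and 0.578 against 1.02 and 0.983 CPM at P1, 13.7 and 14.00 against 0.959 and 0.311 CPM at P6 and 45.98 and 49.05 against 5.13 and 5.48 CPM at P8. The P1 groups overlapped, whereas at P6 the label cKO was no higher than at P1 and the label WT had risen, and at P8 both had risen with the label cKO far below. The differences were -4.44 ± 0.41 (SE, adjusted p = 5.58e-05) at P6 and -3.16 ± 0.36 (SE, adjusted p = 0.000125) at P8. At P6 the 2 libraries labelled cKO held 63 and 20 counts, and without replicate 1 the value was -5.47 (adjusted p = 4.42e-05) and without replicate 2 it was -3.85 (adjusted p = 0.000133).

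*Rspo3* (chromosome 10, 29452416 to 29535867) was counted at 3.15 and 3.33 against 4.998 and 4.62 CPM at P1, 7.86 and 9.24 against 1.51 and 1.74 CPM at P6 and 81.4 and 81.7 against 16.96 and 20.2 CPM at P8. The label cKO was slightly higher at P1, by 0.57 (under the fold threshold), and lower at P6 and P8, at -2.39 ± 0.13 (SE, adjusted p = 1.66e-06) and -2.14 ± 0.12 (SE, adjusted p = 1.32e-06). Genes annotated on both strands overlap *Rspo3*. *Rspo1*, the third family member counted, had no library above 1.42 CPM and was not called. Per kb, the 3 R-spondins summed to 1.42, 5.73 and 36.2 CPM per kb in the groups P1 WT, P6 WT and P8 WT, and to 1.89, 0.935 and 7.62 in those labelled cKO.

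*Lgr6*, a receptor for R-spondins, ran against *Rspo2* and *Rspo3* at P6. Its levels were 3.55 and 3.51 against 5.66 and 4.46 CPM at P1, 3.96 and 3.39 against 23.6 and 21.6 CPM at P6 and 1.97 and 2.04 against 1.87 and 2.88 CPM at P8. The P6 libraries labelled cKO stood far above the other 10, with 2.62 ± 0.21 (SE, adjusted p = 2.17e-05), and the P8 groups overlapped. *Lgr4*, the more abundant receptor, had its largest difference at P8, -0.23, and *Znrf3*, the ligase that R-spondins neutralise, reached 0.19 at P8. The P8 WT libraries differed from each other in *Znrf3*, at 8.73 and 14.05 CPM.

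Of the secretion factors, *Porcn*, which attaches the lipid to Wnt ligands, was called higher at P1, by 0.62 ± 0.16 (SE, adjusted p = 0.0394). Its levels were 14.6 and 13.6 against 20.6 and 22.6 CPM at P1, 9.58 and 10.6 against 11.5 and 14.7 CPM at P6 and 9.098 and 8.16 against 8.08 and 10.5 CPM at P8. The groups were furthest apart at P1 and overlapped at P8. This call was lost in 8 of the 12 fits that left out 1 library, among them all 4 without a P1 library, where the value ranged from 0.55 (adjusted p = 0.174) without P1 cKO replicate 2 to 0.68 (adjusted p = 0.091) without P1 cKO replicate 1. *Wls*, the carrier that brings the ligands to the cell surface, was not called, although it differed by 0.56 at P1, and passed the threshold there without P1 cKO replicate 2, at 0.59 (adjusted p = 0.000294).

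**Figure D4:**
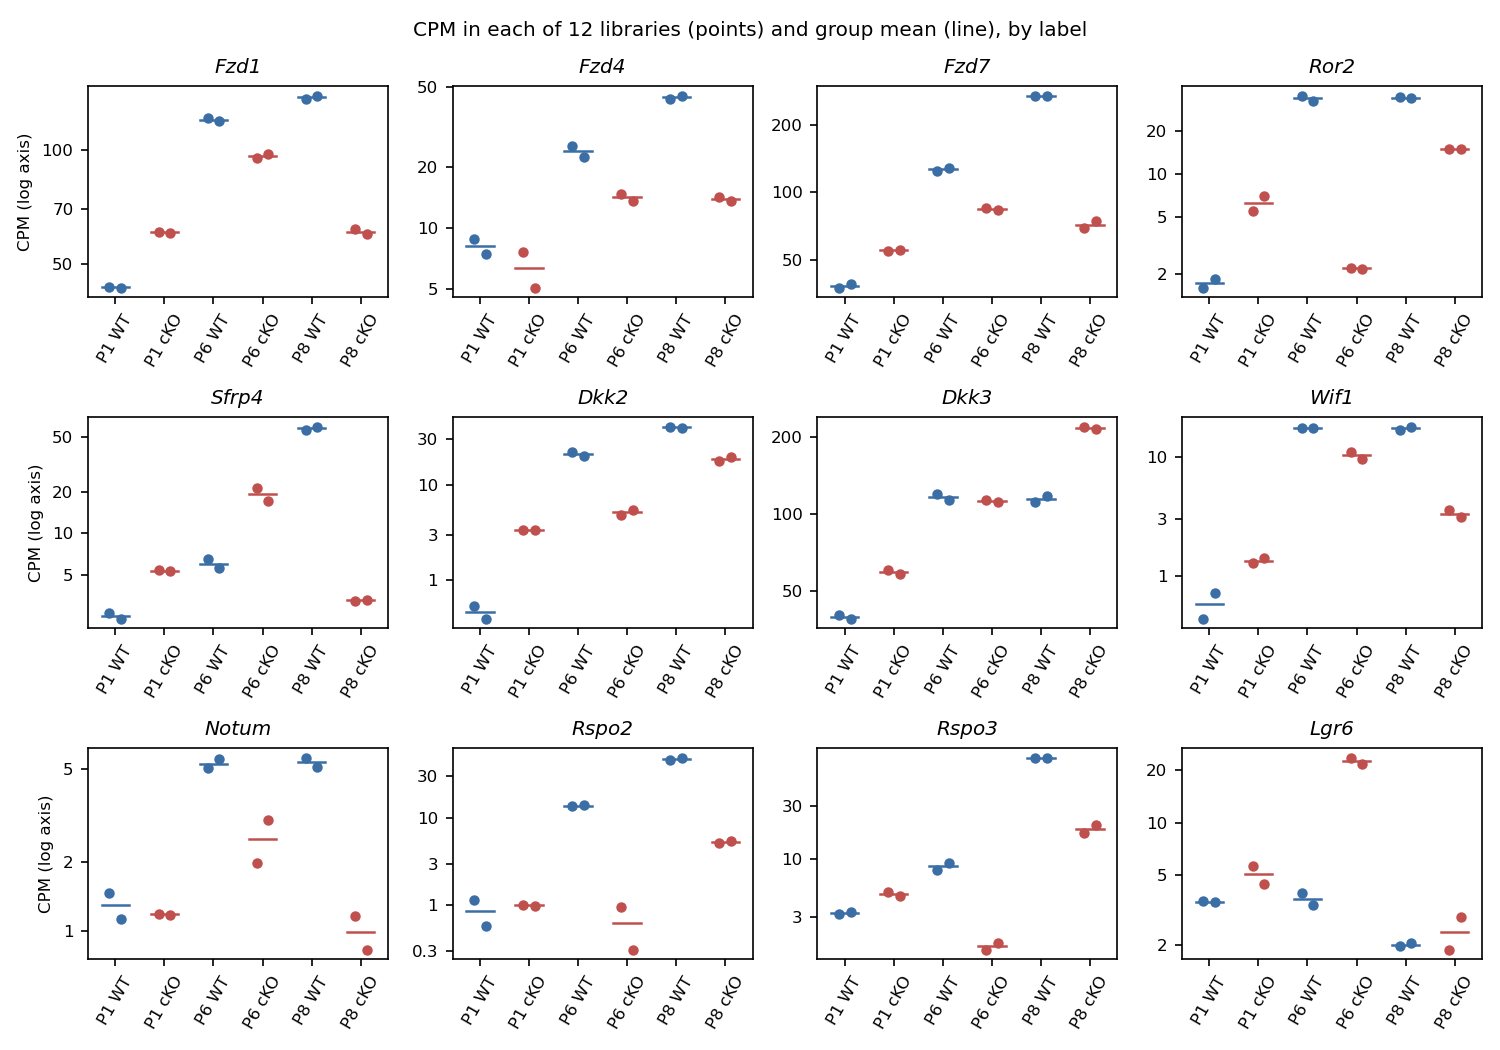
CPM (log axis) of 12 of the genes in each of the 12 libraries (points, blue for the label WT and red for the label cKO) with the group mean as a line. *Ror2*, *Dkk2* and *Wif1* are higher under the label cKO at P1 and lower at P6 and P8, *Sfrp4* turns between P6 and P8, and *Lgr6* peaks in the P6 libraries labelled cKO.

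Across the 3 ages, 4 of the 33 genes were called higher at 1 age and lower at another (2.62% of all genes): *Ror2*, *Dkk2* and *Wif1* turned between P1 and P6, and *Sfrp4* between P6 and P8. Of the 719 genes called higher at P1 in all, 223 were called lower at P6 (31.0%) and 219 lower at P8 (30.5%), and 55 of the 1284 higher at P6 were lower at P8 (4.28%). All 8 genes called lower at P6 (*Fzd4*, *Fzd7*, *Ror2*, *Dkk2*, *Wif1*, *Notum*, *Rspo2* and *Rspo3*) were also called lower at P8, where they made up 8 of the 15. Over all genes, 567 were called lower at both ages, which was 49.6% of the 1144 at P6 and 37.7% of the 1502 at P8. The fibroblast marker sum given above was higher under the label cKO at P1 and lower at P6 and P8, the order also seen for *Ror2*, *Dkk2* and *Wif1*, and the arachnoid barrier sum was lower at P6 and P8. The endothelial sum (4 of 6 markers in the data) had the same order, with log2 ratios of cKO to WT of 0.98, -1.01 and -2.01 at P1, P6 and P8. Its members disagreed at P6 and P8. At P6 *Flt1* was higher under the label cKO, at 39.8 and 33.9 against 51.8 and 54.7 CPM, while the others were lower. The *Kdr* groups overlapped at P1. At P8 *Cdh5* stood at 125 and 141 against 10.1 and 9.59 CPM (labelled WT against labelled cKO), and *Tek* was lower under the label cKO as well. *Flt1* ran the other way, at 6.36 and 3.92 against 19.9 and 18.9 CPM, and the *Kdr* groups overlapped. At P8 the microglia sum (8 markers), led by *C1qa*, *C1qb* and *Csf1r*, stood at means of 2003 CPM under the label WT and 3868 CPM under the label cKO. *Tmem119*, a marker of the same list, was lower under the label cKO there, at 61.8 and 57.7 against 24.3 and 21.5 CPM. The sum of 3 neuronal markers was higher under the label cKO at P6 and P8, with log2 ratios of 1.00 and 1.40. *Stmn2* made up most of it, and the *Tubb3* groups overlapped at P6. The sum of 5 ependymal and choroid plexus markers was lower at P8, with a log2 ratio of -1.68. That fall lay mostly in *Aqp1*, at 182 and 177 against 18.9 and 17.7 CPM (labelled WT against labelled cKO), and *Ttr* was lower as well. *Foxj1* and *Folr1* were higher under the label cKO there, at 24.1 and 25.5 against 42.4 and 39.2 CPM and 0.874 and 1.01 against 3.15 and 3.78 CPM. The part of these marker lists in the results for these genes was not tested. *Fzd5*, *Fzd8*, *Sfrp4* and *Lgr6* at P6, *Dkk3* at P8 and *Apcdd1* at P6 and P8 were higher under the label cKO where the fibroblast sum was lower.

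Whether the genotype difference itself changed with age was tested by interaction terms (adjusted p below 0.05, no fold threshold), which share the P1, P6 or P8 libraries with one another. Of the 33 genes, 26 had a called interaction in at least 1 of the 3 contrasts, as had 34.7% of all genes. From P1 to P6 the difference became more positive in 5 genes (7.12% of all genes) and more negative in 12 (8.19%). From P6 to P8 the counts were 3 (12.6%) and 17 (8.83%), and from P1 to P8 they were 2 (14%) and 17 (11.7%). *Ror2* had the largest shift from P1 to P6, -5.82 ± 0.19 (SE, adjusted p = 7.77e-08), followed by *Dkk2* with -4.91 ± 0.20 (SE, adjusted p = 3.22e-07) and *Rspo2* with -4.69 ± 0.58 (SE, adjusted p = 0.000638). *Sfrp4* had the largest from P6 to P8, -5.81 ± 0.19 (SE, adjusted p = 1.5e-07). In *Ror2* the P8 difference was less negative than that at P6, by 2.77 ± 0.18 (SE, adjusted p = 6.95e-06), and in *Dkk2* by 0.94 ± 0.17 (SE, adjusted p = 0.00392).

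Within the libraries labelled WT, 17 of the 33 genes were higher at P6 than at P1 (12.2% of all genes) and 1, *Fzd3*, was lower (10.9%). Each age came from its own cultures, so these steps compare cultures started at different ages. The largest rises were those of *Dkk2* with 5.53 ± 0.16 (SE, adjusted p = 9.2e-09), *Wif1* with 4.90 ± 0.21 (SE, adjusted p = 1.44e-07), *Ror2* with 4.30 ± 0.14 (SE, adjusted p = 2.3e-08) and *Rspo2* with 4.04 ± 0.40 (SE, adjusted p = 4.15e-05), apart from *Frzb*, whose P1 WT libraries held 0 and 45 counts. From P6 to P8, 8 genes were higher (8.66%) and 4 lower (10.3%) under the label WT. *Sfrp4* and *Rspo3* led with 3.26 ± 0.13 (SE, adjusted p = 1.82e-07) and 3.25 ± 0.13 (SE, adjusted p = 1.49e-07), while *Fzd10*, *Znrf3*, *Lgr6* and *Fzd6* fell, *Fzd10* with a log2 fold change of -1.26 ± 0.18 (SE, adjusted p = 0.000679). The fall of *Lgr6*, -0.87 ± 0.21 (SE, adjusted p = 0.0105), was not called without P6 WT replicate 1 or without P8 WT replicate 1 (adjusted p = 0.0585 and 0.0552).

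Within the libraries labelled cKO, 16 genes were higher at P6 than at P1 (11% of all genes) and 3 were lower (10.4%), among them *Ror2* with -1.52 ± 0.13 (SE, adjusted p = 1.88e-05) and *Rspo3* with -1.56 ± 0.13 (SE, adjusted p = 1.7e-05), both of which rose under the label WT. From P6 to P8, 5 were higher (11.9%) and 12 lower (12.2%). The 5 were *Rspo3*, *Rspo2*, *Ror2*, *Dkk2* and *Dkk3*, with log2 fold changes of 3.51, 3.05, 2.79, 1.86 and 0.95. *Lgr6* and *Sfrp4* fell the most, with log2 fold changes of -3.25 ± 0.22 (SE, adjusted p = 2.77e-06) and -2.55 ± 0.13 (SE, adjusted p = 4.93e-07). Of the 33 genes, 15 had their highest group mean in P8 WT and 8 in P6 cKO, and 17 had their lowest in P1 WT. The same count was not made over all genes, so whether it is particular to these genes was not tested.

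The other genes of the pathway, taken from lists, moved in varied ways at P8. Of 14 Wnt ligands tested, 3 were called higher and none lower at P1, 5 higher and 3 lower at P6, and 7 higher and 3 lower at P8 under the label cKO, where their median log2 fold change was 0.74 beside 0.01 for all genes. The ligands with the largest values at P8 were *Wnt3*, *Wnt16* and *Wnt2b*. *Wnt3* had 0 counts in both P8 WT libraries and a mean of 0.269 CPM in those labelled cKO. *Wnt16* stood at means of 3.76 CPM for P8 WT and 0.218 CPM for P8 cKO, a call that was lost without P8 WT replicate 2 (adjusted p = 0.0553) and without P8 cKO replicate 2 (adjusted p = 0.0673). *Wnt2b* rose by 2.27 ± 0.19 (SE, adjusted p = 1.69e-05). Among the other 14 extracellular modulators, 3 were higher and none lower at P1, 3 higher and 5 lower at P6, and 1 higher and 5 lower at P8, with a median of -0.40 at P8. The glypican *Gpc3* changed by -3.22 ± 0.12 (SE, adjusted p = 1.1e-07) and the Wnt antagonist *Draxin* by -2.83 ± 0.42 (SE, adjusted p = 0.000706). For *Sostdc1* the value was -1.35 ± 0.39 (SE, adjusted p = 0.0235), and the call was lost without P8 WT replicate 2, P8 cKO replicate 1 or P8 cKO replicate 2 (adjusted p between 0.0561 and 0.158).

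Of 19 genes of the intracellular machinery none was called at P1 and 1 was higher at P6 (7.16% of all genes). At P8 only *Apc2*, with -0.92 ± 0.056 (SE, adjusted p = 2.04e-06), and *Pygo1*, with -0.71 ± 0.090 (SE, adjusted p = 0.000247), were lower (8.37% of all genes, list median -0.07). Of 8 canonical target genes, 2 were higher and none lower at P1, and 2 were higher and 3 lower at both P6 and P8, with a median of -0.35 at P8. The cell cycle gene *Ccnd1*, the most abundant of the 8, was called higher at P6 and P8, by 1.06 ± 0.028 (SE, adjusted p = 1.84e-08) and 1.54 ± 0.028 (SE, adjusted p = 2.04e-09), and with it the list's summed level was higher under the label cKO, with log2 ratios of 1.01 and 1.39, opposite in sign to the median at P8. *Tcf7* was called higher at both ages as well, by 1.25 ± 0.11 (SE, adjusted p = 3.15e-05) and 0.73 ± 0.11 (SE, adjusted p = 0.000673). Both were named after their values had been seen. So was *Axin2*, of the same list, which was not called at P6 or P8. It stood at 35.4 and 30.9 against 40.98 and 34.9 CPM at P6 and at 17.1 and 16.5 against 18.1 and 18.5 CPM at P8 (labelled WT against labelled cKO). The feedback inhibitors *Nkd1* and *Nkd2* fell at P8, with log2 fold changes of -1.96 ± 0.28 (SE, adjusted p = 0.000518) and -1.90 ± 0.14 (SE, adjusted p = 7.19e-06), and *Tnfrsf19*, a receptor of the TNF family, fell with one of -1.72 ± 0.14 (SE, adjusted p = 1.59e-05). Of 9 planar polarity genes, none was called at P1, 1 was lower at P6, and 4 were lower at P8, with a median of -0.41. *Prickle1* was counted at means of 63.4 CPM for P8 WT and 9.56 CPM for P8 cKO, a difference of -2.73 ± 0.17 (SE, adjusted p = 2.66e-06). *Prickle2* and *Vangl2* differed by -0.78 ± 0.10 (SE, adjusted p = 0.000343) and -0.72 ± 0.11 (SE, adjusted p = 0.000819).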

How the data were processed

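RNA-seq libraries of primary astrocytes (2 per genotype label at P1, P6 and P8) were analysed from deposited counts, unnormalized integers for 18903 genes. Per the methods and the submitters' processing notes, reads were mapped with HISAT2 to GRCm38 (mm10). How reads were counted (program, annotation, strand, multiple matches) was not given in the sources used here, and overlapping genes may share reads. Besides the members named with this limit above, annotated genes overlap *Fzd3*, *Fzd5*, *Fzd6*, *Ryk*, *Kremen1*, *Rspo1* and *Wls*. Differential tests of the study named ballgown and DESeq2.

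Counts were normalized by TMM and tested in edgeR 4.0.16 (R 4.3.3, with limma 3.58.1) by the quasi-likelihood test with 1 mean per group over all 12 libraries, after filterByExpr, which kept 17938 genes. P-values were adjusted by the method of Benjamini-Hochberg over these genes. Standard errors were taken from the fold change and the F statistic. The common biological coefficient of variation was 0.178, and library totals of 54413504 to 89183250 set the counting error. Replicates differed by more than counting noise (chi-square per degree of freedom 30.5 to 47.1). The alternatives were DESeq2 1.42.0, DESeq2 size factors within edgeR, all genes without the low-count filter, a replicate block, fits of only the time points compared, an unadjusted p, a fold change of at least 2, and the omission of each library. Gene positions and exon lengths came from GENCODE vM21.

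The members, the pathway lists and the marker lists were chosen with earlier results of these data known. Members called at 1 or more ages and with a mean of at least 1 CPM were described in full and the others by 1 value or range, and of each pathway list the 3 largest changes called at P8 were named. *Frzb*, *Ccnd1*, *Tcf7*, *Axin2*, *Aldh1l1*, *Gja1*, *Slc1a2* and the values of *Fzd2* and *Wls* without single libraries were singled out after they had been seen. Single-cell, ChIP-seq and ATAC-seq data of the study were not used here.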

Additional observations from a re-analysis of the deposited data

Results flagged for a closer look

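The genotype difference of 26 of the 33 genes changed between ages by the interaction term of the edgeR fit over all libraries (adjusted p below 0.05), as did that of 34.7% of all genes tested, and each value below is the change of the log2 fold change between the libraries labelled cKO and WT. The 3 contrasts share libraries and are not independent of each other.

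From P1 to P6 the difference of *Fzd1* changed by -0.80, that of *Fzd2* by -1.01 and that of *Fzd7* by -1.11, whereas *Fzd5* and *Fzd8* moved the other way by 0.82 and 0.94. *Ror2* changed by -5.82 and *Ptk7* by -0.83. Of the antagonists, *Sfrp1* changed by 0.71, *Dkk2* by -4.91, *Dkk3* by -0.64 and *Wif1* by -1.95. *Frzb* changed by -4.18, a value that became -3.30 without P1 WT replicate 1, where it had 0 counts, and was not called without P6 WT replicate 1, P6 cKO replicate 1 or P6 cKO replicate 2. *Kremen1* changed by 0.29, and this call was lost in each of the 12 fits that left out a library. *Rspo2* changed by -4.69, and by -5.72 without P6 cKO replicate 1 or -4.10 without P6 cKO replicate 2. *Rspo3* changed by -2.96, *Lgr6* by 2.10 and *Wls* by -0.83.

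From P6 to P8, 7 Frizzled genes moved to the lower side: *Fzd1* by -0.86, *Fzd3* by -0.64, *Fzd4* by -0.92, *Fzd5* by -0.80, *Fzd7* by -1.33, *Fzd8* by -0.56 and *Fzd10* by -1.27. Of the other receptors, *Lrp5* changed by -0.31, *Lrp6* by -0.72, *Ror1* by -1.62, *Ptk7* by -0.51 and *Ror2* by 2.77. *Sfrp1* changed by -0.34 and *Sfrp4* by -5.81. *Dkk2* and *Dkk3* moved to the higher side by 0.94 and 0.98, and *Kremen1* to the lower by -0.45. *Wif1* changed by -1.61, *Notum* by -1.35 and *Lgr6* by -2.37. Of these calls, those of *Fzd3*, *Fzd4*, *Fzd8*, *Lrp5* and *Notum* were lost without 1 or more of the P6 or P8 libraries: *Fzd8* without P8 cKO replicate 2, and *Lrp5* without P6 WT replicate 2, P8 cKO replicate 2 or either P8 WT library. *Fzd3* was lost without either P6 WT library, P8 WT replicate 2 or either P8 cKO library. *Fzd4* was lost without P6 WT replicate 2, P6 cKO replicate 1 or any P8 library, and *Notum* without either P6 WT library, P6 cKO replicate 2, either P8 WT library or P8 cKO replicate 2.

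From P1 to P8 the changes of the Frizzled genes were -1.66 for *Fzd1*, -1.29 for *Fzd2*, -1.33 for *Fzd4*, -0.75 for *Fzd6*, -2.44 for *Fzd7* and -1.55 for *Fzd10*. *Lrp6* changed by -1.06, *Ror1* by -1.35, *Ror2* by -3.04 and *Ptk7* by -1.33. Of the antagonists, *Sfrp4* changed by -5.23, *Dkk2* by -3.97, *Wif1* by -3.56 and *Notum* by -2.30, while *Sfrp1* and *Dkk3* moved up by 0.38 and 0.35. *Rspo2* changed by -3.41, *Rspo3* by -2.70 and *Wls* by -0.85.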

How the results depend on the processing

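Of 374 recomputed counts of called members, 361 stayed within 1.5 times the value reported. With a fold change of at least 2, the P6 counts went from 5 to 2 higher and from 8 to 5 lower, and the P8 count of higher genes from 2 to 0 (edgeR, adjusted p below 0.05; with an unadjusted p and 1.5-fold it was 2, and 2 in DESeq2). That threshold also left 4 of 8 higher and 1 of 4 lower genes in the step from P6 to P8 under the label WT, 7 of 16 higher from P1 to P6 and 6 of 12 lower from P6 to P8 under the label cKO, since fewer values reach it. With an unadjusted p, the genotype difference became more positive from P1 to P6 in 8 genes instead of 5. Leaving out 1 library gave 0 to 1 lower genes at P1 (1 without P1 cKO replicate 1), 5 to 9 lower at P6 (5 without P6 cKO replicate 2) and 1 to 2 higher at P8 (1 without P8 WT replicate 1, P8 WT replicate 2 or P8 cKO replicate 1). No called value changed sign. Of 4541 recomputed values of named genes, 132 lost and 14 gained the call. The cause of these changes was not tested.

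The replicate numbers did not pair the libraries: the correlation of the deviations of same-numbered libraries lay between -0.063 and 0.044. With the replicate block, 6 genes were higher and 0 lower at P1, 5 higher and 8 lower at P6, and 2 higher and 15 lower at P8; of the other counts, 4 instead of 5 differences became more positive from P1 to P6 and 3 instead of 2 from P1 to P8. With 2 libraries a group an exact permutation test of a single gene cannot go below p = 0.333, and a fit without a library takes the spread of the lone remaining one from the other groups.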
